A study of Homo sapiens with 10 samples.

Results

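POU5F1, SOX2 and NANOG encode the transcription factors that hold human pluripotent stem cells in their undifferentiated state. The nucleosome positions described here are all those whose midpoint lay in 1 of the 3 genes or within 20 kb of it, which gave 763 of the 12921589 positions of the list. POU5F1 had 302 of them, SOX2 had 219 and NANOG had 242. The members were chosen by place alone, and no score entered the choice. The cells were human induced pluripotent stem cells (hiPSCs) of the line PB010.5, a single line whose EEF2 locus carries a FUCCI cassette, a reporter of the cell cycle, grown without feeder cells and not differentiated. Permeabilized cells were digested with micrococcal nuclease (MNase) at 10 U, 6 U, 3 U, 1 U or 0.5 U. For its titration of hiPSCs the paper's methods give 5 min and its results a longer time, and neither names the sequenced libraries. Each amount of enzyme gave 1 library, and each library was sequenced with 150-bp and with 50-bp reads, which makes 10 samples. The list pools libraries, and which runs went into it is not stated, so no value can be given per MNase amount, there are no replicates and no comparison between conditions or p-value is made. The list measures no expression, so the identity of the cells could not be checked against the expression of these same 3 marker genes.

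POU5F1, also called OCT4, is a POU-domain factor that reads an octamer element, SOX2 is an HMG-box factor that reads a shorter element, and the pair is known to bind DNA where both elements stand side by side. NANOG is a homeodomain factor, and its own proximal promoter holds such a joined element. All 3 genes are known to be under the control of enhancers upstream or downstream of their starts, of which no map was used here. MNase cuts the linker DNA between nucleosomes, so a run of fragments from the same place marks a nucleosome. A stretch without a position can be DNA free of nucleosomes, DNA on which nucleosomes have no fixed place, or DNA to which short reads cannot be assigned, and a list of positions alone does not tell these apart.

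Each position is an interval of 140 bp with a score, a signal height given by the authors, whose scaling is not stated and which moves in steps of 1.23. Distances below are from the midpoint of a position to the start of the canonical GENCODE transcript, negative upstream along the gene's strand. On GRCh38 the POU5F1 locus was chr6:31144337-31200731, with the gene (ENSG00000204531.21) on the minus strand and its canonical start at 31170682. The SOX2 locus was chr3:181691925-181734436, with the single-exon gene (ENSG00000181449.4) on the plus strand from 181711925. The NANOG locus was chr12:7767794-7819146, with the gene (ENSG00000111704.11) on the plus strand and its canonical start at 7789402. Other annotated transcripts began 10049 bp further upstream at POU5F1 and 1608 bp further upstream at NANOG.

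The 250 bases before the canonical starts of SOX2 and NANOG are shown first, because the positions around them and the joined element of NANOG are described below. They are given 5′ to 3′ on the strand of the gene, from RefSeq promoters on GRCh38.p14. The capitals mark the joined element, which is the SOX element CATTGT, 1 further base and the first 7 bases of the octamer, ATGCAAA, read here from the opposite strand. Of both sequences, only that of NANOG held it.
SOX2 (chr3:181711675-181711924, plus strand): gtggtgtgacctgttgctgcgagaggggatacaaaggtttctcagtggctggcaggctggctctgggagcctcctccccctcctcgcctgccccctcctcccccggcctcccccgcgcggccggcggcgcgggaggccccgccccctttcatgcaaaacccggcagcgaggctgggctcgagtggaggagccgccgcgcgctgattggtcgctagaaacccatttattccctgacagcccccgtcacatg
NANOG (chr12:7789152-7789401, plus strand): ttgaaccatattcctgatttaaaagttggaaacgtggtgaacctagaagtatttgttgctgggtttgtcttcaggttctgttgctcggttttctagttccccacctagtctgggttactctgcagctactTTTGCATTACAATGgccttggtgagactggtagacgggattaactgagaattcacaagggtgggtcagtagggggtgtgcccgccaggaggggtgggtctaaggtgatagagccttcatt

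Around the canonical starts, the 3 genes differed in how the first positions on each side were laid out. At POU5F1 the 5 positions downstream of the start lay at 120, 305, 465, 640 and 800 bp, with scores of 24.7, 18.5, 24.7, 27.1 and 17.3. They formed an even row with a mean distance of 170 bp that ran from the coding part of exon 1 into intron 1. Such a row, of at least 5 positions whose neighbours are 160 to 210 bp apart, occurred 3 times in the POU5F1 locus and once each in the SOX2 and NANOG loci. Rows of this kind held 4.97% of the POU5F1 positions, 2.28% of the SOX2 positions and 2.48% of the NANOG positions, beside 4.25%, 4.39% and 4.46% of all positions of chromosomes 6, 3 and 12. The other POU5F1 rows lay from -4670 to -3950 and from -13070 to -12300.

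Upstream of the POU5F1 start, the 5 nearest positions lay at -170, -370, -590, -800 and -1070 bp, with scores of 23.4, 22.2, 27.1, 16.0 and 38.3. All of these distances between neighbours were 200 bp or more, wider than in the row downstream. The SOX2 start had its nearest upstream positions at -123, -343, -473, -683 and -843 bp, with scores of 18.5, 16.0, 19.7, 28.4 and 39.5. Downstream they followed at 107, 317, 547, 677 and 907 bp, with scores of 21.0, 25.9, 7.40, 14.8 and 22.2, so that the score dropped at the third position, which lies in the coding sequence. Of the positions of chromosome 3 with a like GC content around the midpoint, 1.58% scored below it, with ties not counted. The same score of 7.40 came again within the transcript at 1247, 1357, 1457 and 1947 bp.

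At NANOG weak and strong positions stood side by side, and the weakest of the 10 nearest was the first one upstream. Upstream they lay at -220, -450, -630, -880 and -1050 bp, with scores of 8.64, 27.1, 12.3, 30.9 and 14.8. Downstream they lay at 40, 320, 1200, 1390 and 1520 bp, with scores of 25.9, 9.87, 9.87, 9.87 and 21.0. Between the positions at 320 and 1200 bp no position was listed for 880 bp. The positions at -220 and 40 bp were 260 bp apart, and the joined element (chr12:7789282-7789295, centred at -114 bp) lay in the DNA between them, outside the interval of any position and 106.5 bp from the nearest midpoint.

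That exact joined element was rare. It occurred 9 times on chromosome 12, of which 6 were inside the interval of a position, and 3 of 35116 RefSeq promoters of 300 bases (0.00854%) held it on either strand, that of NANOG among them. The full octamer ATGCAAAT, which overlaps the joined element in all but its last base, occurred on either strand in 1.77% of the promoters, and the SOX element CATTGT, which is part of the joined element, in 10.8%. In the loci, the octamer occurred 1 time at POU5F1, 1 time at SOX2 and 3 times at NANOG. That of POU5F1 lay at -13690 bp, inside a position with a score of 18.5 at the edge of the widest gap of the locus. That of SOX2 lay at 6546 bp, inside a position with a score of 18.5. Of the NANOG octamers, those at 13212 and 22032 bp were inside a position, and that at 3860 bp in intron 2 was not. The SOX element occurred 16 times at POU5F1, 19 times at SOX2 and 19 times at NANOG, inside a position in 9, 14 and 12 cases (56.3%, 73.7% and 63.2%), beside 57.0%, 58.0% and 58.4% of all matches on the chromosomes. These few matches are a description, and no match of letters shows that a factor was bound.

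A second feature of the NANOG start bears on these values. Where the same bases occur more than once in a genome, a read that lies wholly within them has no unique place. A base is called repeated here where the 50 bases centred on it occur again, letter for letter and on either strand, on chromosomes 1 to 22, X or Y. Reads or read pairs that span more than 50 bases can still have a unique place over such a base. The repeated share can therefore overstate the DNA without placed reads. In the 100-bp bin centred at -150 bp, which holds the joined element, 100% of the bases were repeated, and so were 47.1% of the bases of the position at -220 bp and 50.0% of those of the position at 40 bp. The absence of a position over the element therefore cannot be told apart from reads without a unique place. The upstream positions of POU5F1 and SOX2 at the starts held no repeated base, but some downstream ones did. In the even row downstream of the POU5F1 start, 64.3% and 27.9% of the bases of the positions at 120 and 305 bp were repeated. Downstream of the SOX2 start, the positions at 547 and 677 bp were repeated over 12.9% and 22.9%.

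**Figure D1:**
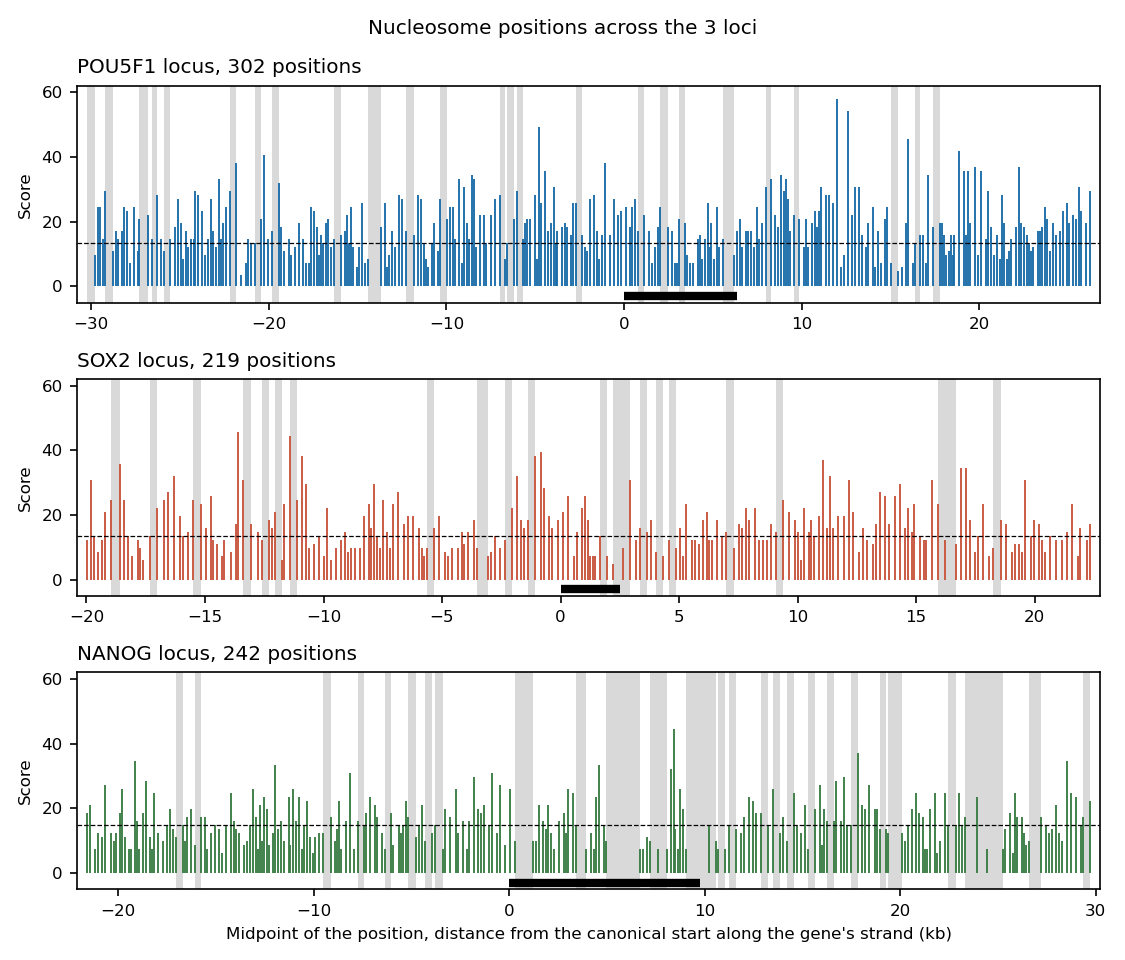
Scores of all positions in the 3 loci (vertical axis, score in the authors' units) against the distance of the midpoint from the canonical start in kb, with 1 line per position. Grey bands are distances of 300 bp or more between neighbours, the black bar is the canonical transcript and the dashed line the median score of the chromosome (13.6, 13.6 and 14.8). Bands are widest inside and downstream of NANOG, and the tallest lines at POU5F1 stand near 12 kb downstream of its start.

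Over the whole locus, NANOG held fewer positions than most windows like it, and POU5F1 and SOX2 lay below their window medians by less. Non-overlapping windows of the same chromosome and length, with a GC content within 1 percentage point, were used as the background. Windows are not replicates, and shares of windows are given as a description. NANOG held 4.71 positions per kb (95% exact Poisson interval 4.14 to 5.35, for counting error only), beside a window median of 5.26 (quartiles 5.14 and 5.38), and 7 of 199 windows (3.52%) held fewer, a share that rose to 7.21% with windows within 3 GC points and to 12.6% when positions scoring under the chromosome median were left out. POU5F1 held 5.36 per kb (4.77 to 5.99), beside a median of 5.52 (5.43 and 5.66), and 11 of 49 windows (22.4%) held fewer. SOX2 held 5.15 per kb (4.49 to 5.88), beside a median of 5.27 (5.10 and 5.41), and 94 of 315 windows (29.8%) held fewer. The counting intervals of the 3 loci overlapped each other, and each included its window median. Each interval was wider than the span between the window quartiles, so it does not give the place of a locus among its windows.

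The share of bases covered by a position followed the same order. Positions covered 62.3% of the NANOG locus, 68.8% of the SOX2 locus and 71.2% of the POU5F1 locus. The NANOG and POU5F1 values lay below their lower window quartiles of 68.1% and 71.4%, and the SOX2 value lay between its quartiles of 67.8% and 71.6%. The loci also differed in repeated sequence, with 15.4% of the bases at NANOG, 10.6% at POU5F1 and 1.25% at SOX2, beside 7.75%, 6.80% and 6.79% of chromosomes 12, 6 and 3. GENCODE annotates 9 pseudogenes named after NANOG and 6 named after POU5F1, copies of these genes or their transcripts elsewhere in the genome, and 0 named after SOX2. When the windows were matched on the repeated share as well, which was added after the data were seen, 3.70% of 27 windows held fewer positions per kb than NANOG, 30.0% of 20 held fewer than POU5F1 and 14.6% of 199 held fewer than SOX2.

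Scores were close to those of the matched windows. The median score was 18.5 at POU5F1, 14.8 at SOX2 and 14.8 at NANOG, each 1 step below the window medians of 19.7, 16.0 and 16.0. Lower medians were found in 16.3%, 1.28% and 8.54% of the windows, and medians as low or lower in 40.8%, 18.2% and 24.1%, since scores move in steps. By the mean in place of the median the shares were 26.5%, 29.7% and 13.1%, so the place of SOX2 depends on which of them is used. Scores rose with the GC content around the midpoint (Spearman's rho across positions 0.39 at POU5F1, 0.40 at SOX2 and 0.34 at NANOG, beside 0.52, 0.52 and 0.51 over their chromosomes), and neighbouring positions share libraries and base composition.

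The strongest positions of the loci did not lie at the starts of the 3 genes. At POU5F1 the highest scores were 58.0 at 11970 bp and 54.3 at 12630 bp, above 99.98% and 99.97% of the positions of chromosome 6. They lie on either side of the divergent starts of the neighbouring protein-coding genes TCF19 and CCHCR1, the first 381 bp into TCF19 and the second 186 bp into CCHCR1. The third highest, 49.4, lay at -4790 bp in the lncRNA gene PSORS1C3. The lowest were 3.70 at -21595 bp, 4.94 at 15435 bp and 6.17 at 15640 bp, the last tied with others, a value that was also the lowest at NANOG, at -14685, -10040 and 21900 bp among others.

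At SOX2 the highest scores were 45.7 at -13593 bp, 44.4 at -11433 bp and 39.5 at -843 bp, all upstream and all within SOX2-OT, the long non-coding gene that spans the whole locus. The position at -11433 bp lay 119 bp from the start of the antisense lncRNA ENSG00000239381. The lowest score, 4.94, lay at 2227 bp in the 3′ UTR. At NANOG the highest score was 44.4, at 8410 bp, also in the 3′ UTR, followed by 37.0 at 17840 bp and 34.6 at -19120 bp. The NANOG position in the 3′ UTR scored above 99.72% of chromosome 12, and 0% of its bases were repeated. The strongest positions within 5 kb upstream of POU5F1 and SOX2 are shown because they are the highest-scoring DNA of those stretches and held no repeated base. That of POU5F1 stood between scores of 8.64 and 25.9, whereas that of SOX2 was 1 step above its neighbour at -1093 bp, with 38.3. Neither holds an octamer, a SOX element or the joined element, so nothing is in capitals.
POU5F1 position at -4790 bp, score 49.4 (chr6:31175402-31175541, minus strand): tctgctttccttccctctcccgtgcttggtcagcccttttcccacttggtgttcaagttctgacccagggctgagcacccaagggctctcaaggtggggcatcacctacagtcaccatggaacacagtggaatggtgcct
SOX2 position at -843 bp, score 39.5 (chr3:181711012-181711151, plus strand): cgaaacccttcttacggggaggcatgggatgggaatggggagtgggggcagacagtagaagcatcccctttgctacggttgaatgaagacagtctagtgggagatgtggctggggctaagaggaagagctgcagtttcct

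Along the POU5F1 locus, density was highest past the 3′ end and lowest just upstream of the canonical start. From 5 to 1 kb upstream, 24 positions gave 6.00 per kb, more than in 77.1% of matched windows, and covered 79.0% of the bases. In the 1 kb upstream of the start, 4 positions covered 56.1% of the bases beside a window median of 74.0%. Of 1520 windows, 7.11% held fewer positions, with ties not counted. The 1 kb past the end held 7 positions, more than 89.7% of windows. The transcript held 32 positions, 5.04 per kb (3.45 to 7.12), beside a median of 5.52, and 18.9% of windows held fewer. With 18.2% of its bases repeated, it lay above the median of 4.49 of the 18 windows that were also like it in repeated bases, of which 77.8% held fewer. Measured from the start farthest upstream in place of the canonical one, the 1 kb upstream held 5 per kb and the stretch from 5 to 1 kb upstream 4.75, so that their order turned.

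SOX2 kept a nearly even density along its locus, from 4 per kb in the 1 kb past its end to 5.27 per kb beyond 5 kb upstream. The 1 kb upstream held 5 positions, beside a median of 6.00, and 14.5% of windows held fewer, with ties not counted. Its transcript held 13 positions with a median score of 13.6, beside 18.5 in matched windows, of which 4.32% were lower. Within the transcript, positions covered 86.2% of the coding sequence with scores from 7.40 to 25.9, and 49.8% of the 3′ UTR with scores from 4.94 to 13.6. The 5′ UTR lay between, with 64.2% covered. Repeated bases made up 5.26% of the coding sequence and 1.07% of the 3′ UTR.

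NANOG changed along its length. Beyond 5 kb upstream it held 97 positions, 5.84 per kb (4.74 to 7.13), more than 97.8% of matched windows. From there on every stretch was below its window median. The stretch from 5 to 1 kb upstream held 4.75 per kb, the 1 kb upstream 4, the transcript 3.69 (2.59 to 5.11, below the window median of 5.23), the 1 kb past the end 3.00 and the rest downstream 4.37 (3.48 to 5.42). Fewer positions were found in 16.5%, 4.55%, 2.35%, 1.57% and 5.18% of the windows. Windows with the same number, which the small counts in 1 kb can make common, were not counted as fewer. For the transcript, 24.2% of whose bases were repeated, 23.3% of the 30 windows that were also like it in repeated bases held fewer. For the rest downstream, with 14.6% repeated, 8.74% of 103 such windows did, and beyond 5 kb upstream, with 11.7% repeated, 99.1% of 235 did. The counting intervals of the farthest upstream stretch and the transcript overlapped, which does not show that their densities were alike. The difference between them was not tested.

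**Figure D2:**
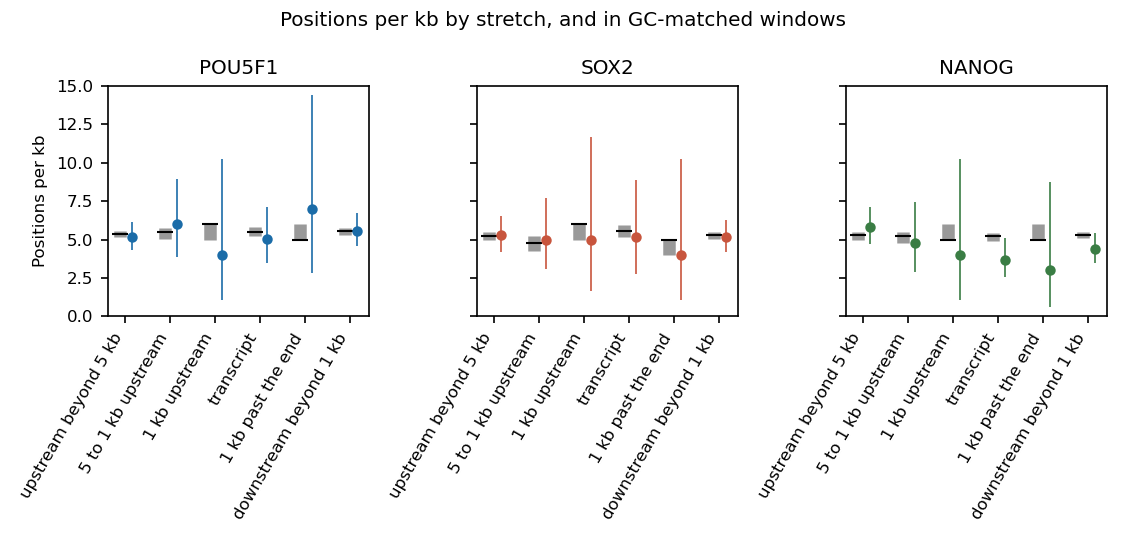
Positions per kb (vertical axis) in 6 stretches of each locus, as points with 95% exact Poisson intervals for counting error, beside the median (black dash) and quartiles (grey bar) of GC-matched windows of the same length. NANOG lies above the bar beyond 5 kb upstream (5.84 per kb) and below it in the transcript (3.69 per kb). Short stretches have wide intervals.

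The 1 kb upstream was thinner than the matched windows at all 3 genes, so it was also set against the 1 kb upstream of other protein-coding genes of the same chromosome with a GC content within 3 points, an alternative added after the data were seen. Of 207 such genes, 4.83% had fewer positions than the 4 of POU5F1 and 18.8% as few or fewer. Of 227 genes, 4.85% had fewer than the 4 of NANOG and 26.4% as few or fewer, and of 253 genes 20.2% had fewer than the 5 of SOX2 and 62.8% as few or fewer. The median gene held 5.00 in each case. A smaller share of bases was covered in 11.6% of the genes for POU5F1 and 43.9% for SOX2, with NANOG between, and median scores were lower in 78.7%, 66.5% and 46.6% of the genes for POU5F1, NANOG and SOX2. The counts are so small that 1 position more or less moves these shares widely.

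Gaps, which are neighbouring midpoints 300 bp or more apart, numbered 25 at POU5F1, 22 at SOX2 and 31 at NANOG. Of the distances wholly inside the loci they made up 7.97% (24 of 301), 10.1% (22 of 218) and 12.9% (31 of 241), below the shares of chromosomes 6, 3 and 12, which were 15.5%, 14.8% and 14.3%. Against GC-matched windows of the same length the direction was the other way, with fewer gaps in the median window than in the locus, at 19 gaps (quartiles 15 and 23) for POU5F1, 20 (16.5 and 23) for SOX2 and 25 (21 and 29) for NANOG. Fewer gaps were found in 81.6%, 61.0% and 83.4% of the windows. Gaps were not evenly laid out. At POU5F1, 15 of the 25 lay beyond 5 kb upstream, a stretch that makes up 25049 of the 56395 bp of the locus. At NANOG, 16 of the 31 lay more than 1 kb past the end, in 19000 of 51353 bp. Both are the longest stretches of their loci, so many of their gaps go with length.

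The gaps of NANOG tended to be wide and to hold repeated sequence, with a median distance of 380 bp, and those of SOX2 were narrower, with a median of 318 bp. At SOX2 all 22 gaps had under 10% of repeated bases, beside 17 of 25 at POU5F1 and 11 of 31 at NANOG, and 85.9%, 84.9% and 83.8% of the gaps of their chromosomes. The widest distance was 1770 bp at NANOG, which 8 of 199 windows exceeded, 750 bp at POU5F1, which 10 of 49 exceeded, and 475 bp at SOX2, which 288 windows exceeded.

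**Figure D3:**
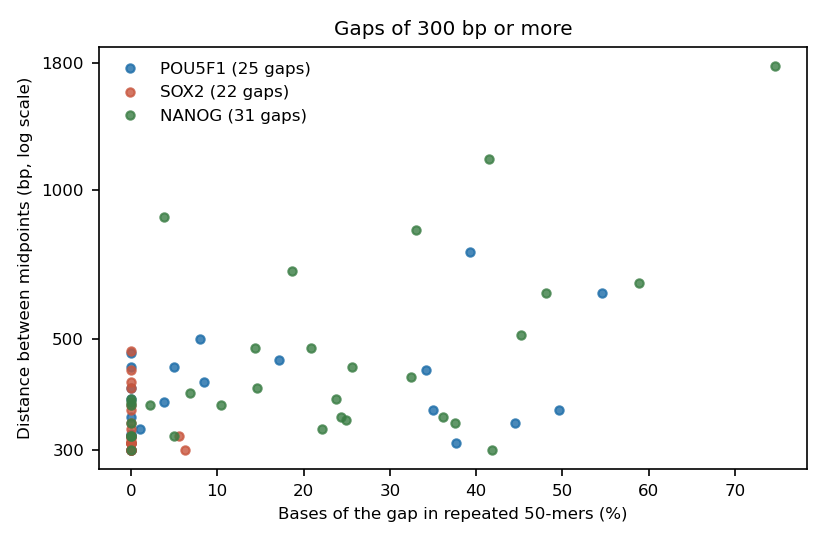
Width of each gap (distance between neighbouring midpoints in bp, log scale) against the share of its bases in repeated 50-mers (%), with 1 point per gap. The SOX2 gaps stay at the left and under 500 bp, while the widest NANOG gap, 1770 bp, lies at 74.6% repeated bases and the NANOG gap of 880 bp at 3.78%.

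Of the 6 gaps in the transcript of NANOG, some took in whole exons and 1 lay wholly in intron 1. The widest, from 4950 to 6720 bp, took in the end of intron 2, exon 3, intron 3 and the start of exon 4, and 74.6% of it was repeated. Exon 2 (chr12:7792950-7793212) and exon 3 (chr12:7794457-7794543) held 0 positions and 0% of their bases were covered, with 63.5% and 62.1% of bases repeated. Exon 1 was repeated over 68.7%, more than either, yet held 2 positions and was covered over 61.5%. The whole coding sequence, 915 bases, held 1 position, of score 9.87, and was covered over 12.5%, with 71.8% repeated. The introns, with 6.99% repeated, held 21 positions and were covered over 60.6%. The second widest gap, of 1150 bp from 9070 to 10220 bp, spanned the end of the transcript, with 41.5% repeated.

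Among the POU5F1 exons, coverage fell as the repeated share rose, with exon 2 as the exception. Its 1080 coding bases held 5 positions, were covered over 59.7% and were repeated over 59.7%, and its introns held 26 positions, were covered over 71.2% and were repeated over 6.85%. The second widest gap, of 620 bp from 5570 to 6190 bp, lay over most of intron 4 and part of exon 5 and was 54.6% repeated. Exon 5 (chr6:31164337-31164867), with 72.5% repeated, was covered over 33.0%, and intron 4, with 0% repeated, over 33.1%. Exon 1 (chr6:31170216-31170682), with 38.5% repeated, was covered over 75.2%. Exon 2, with 61.98% repeated, was covered over 95.04%, and exons 3 and 4, with 56.5% and 66.0% repeated, over 69.5% and 62.3%. The single exon of SOX2 was 2.47% repeated and covered over 66.1%.

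Windows of 1 kb elsewhere gave the scale of this. On chromosome 12, among windows within 3 points of the GC content of the NANOG locus, those with no repeated base held 5.51 positions per kb, those with some under 50% held 5.19, and those with 50% or more held 2.19, where 21.6% held no position. Chromosome 6 gave 5.65, 5.38 and 1.87 per kb, and chromosome 3 gave 5.51, 5.14 and 2.19. The part of unplaced reads in the low counts of the NANOG and POU5F1 exons was not tested further, since the list holds no reads.

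**Figure D4:**
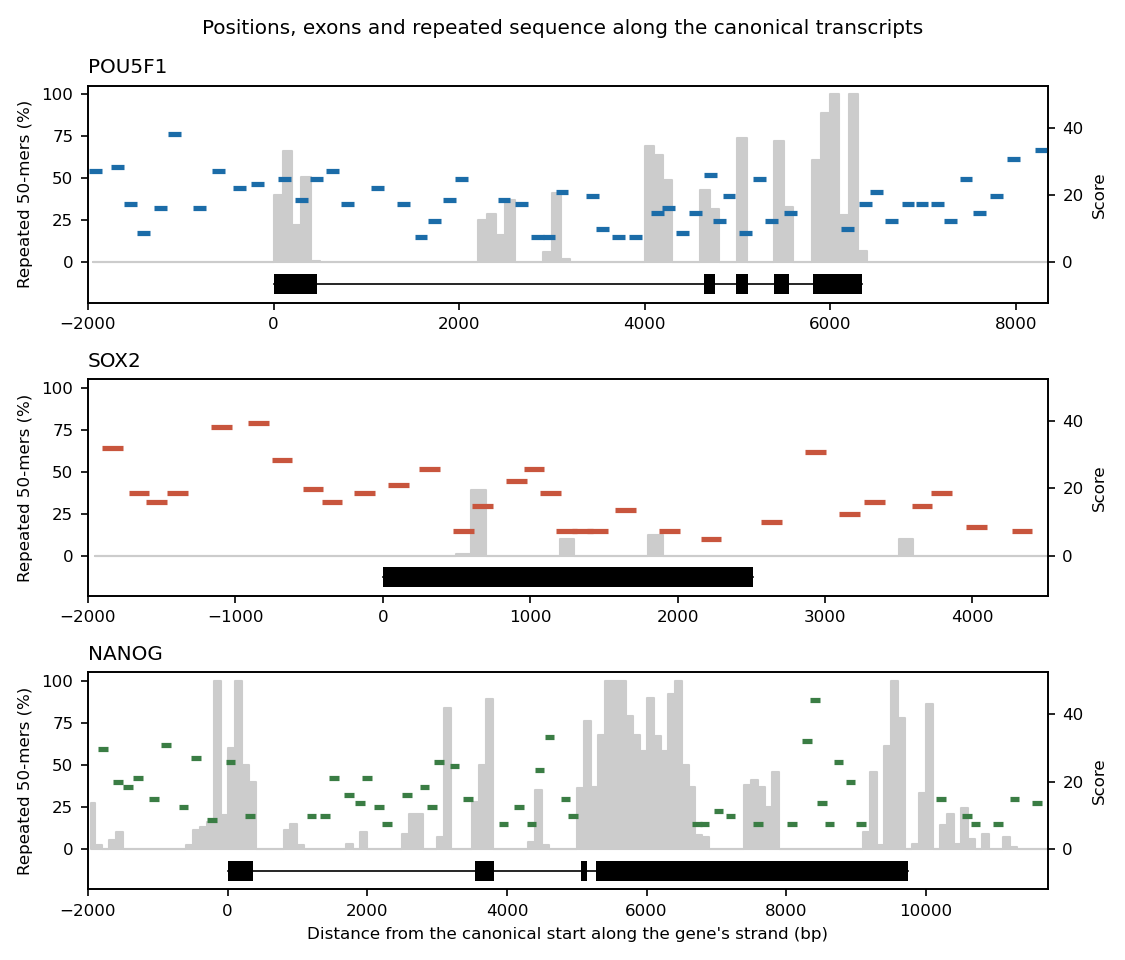
Positions (coloured bars 140 bp long, height on the right axis, score) along the canonical transcripts with 2000 bp on each side, against the distance from the start in bp. Grey columns give the bases in repeated 50-mers per 100-bp bin (left axis, %), and black boxes are exons. At NANOG exons 2 and 3 stand under grey columns without bars, while the empty stretch from 320 to 1200 bp has almost no grey.

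Not every wide gap lay on repeated sequence. The third widest of NANOG, 880 bp from 320 to 1200 bp in intron 1 (uncovered bases chr12:7789792-7790531), was 3.78% repeated and had a GC content of 42.0%, with scores of 9.87 on both sides. Of the distances on chromosome 12, 0.455% were as wide, and 1386 of those 2819 also had under 10% repeated bases. Copies that differ by scattered bases were not searched for. In SOX2, the widest gap lay upstream, from -3528 to -3053 bp, with 0% repeated, a GC content of 34.9% and weak neighbours of 9.87 and 7.40. In POU5F1, the widest lay from -14410 to -13660 bp, with a GC content of 24.7% and 39.3% of its bases repeated.

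The central 300 bases of the NANOG intron 1 gap and the widest SOX2 gap are shown on the strand of each gene. They are examples of uncovered DNA outside the exons, and the loci held other such gaps that are not shown. The longest run of A and T alone was 8 bases in the NANOG stretch and 12 in the SOX2 stretch. Neither held an octamer, a SOX element or the joined element.
NANOG intron 1 gap (chr12:7790012-7790311, plus strand): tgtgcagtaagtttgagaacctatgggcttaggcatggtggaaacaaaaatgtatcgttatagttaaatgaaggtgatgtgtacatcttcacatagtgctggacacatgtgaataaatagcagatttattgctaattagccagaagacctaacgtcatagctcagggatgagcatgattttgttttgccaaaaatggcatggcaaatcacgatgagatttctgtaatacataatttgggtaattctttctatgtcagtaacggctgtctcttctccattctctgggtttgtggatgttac
SOX2 upstream gap (chr3:181708485-181708784, plus strand): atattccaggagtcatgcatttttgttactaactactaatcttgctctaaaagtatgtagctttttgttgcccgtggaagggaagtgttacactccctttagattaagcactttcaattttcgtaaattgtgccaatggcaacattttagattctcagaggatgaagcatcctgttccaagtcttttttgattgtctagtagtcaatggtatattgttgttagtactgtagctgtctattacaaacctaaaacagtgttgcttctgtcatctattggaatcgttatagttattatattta

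Among the other gaps with few repeated bases, those of SOX2 crowded past its coding sequence. From 1647 to 4867 bp, over 3221 bp that take in most of the 3′ UTR and the DNA behind it, 6 of the 12 distances were gaps, with 0.683% repeated bases and a GC content of 36.0%. This stretch was picked after its gaps were seen and is a description only. Its 13 positions had scores from 4.94 to 30.9, with the highest at 2937 bp. At POU5F1 a single gap, 320 bp wide from -2690 to -2370 bp, broke the dense stretch from 5 to 1 kb upstream, with 0% repeated, a GC content of 57.8% and scores of 25.9 and 16.0 on its sides.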

How the data were processed

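The authors trimmed paired-end reads with Trimmomatic 0.40, aligned them to GRCh38 and ran the nucMACC workflow with a blacklist. The deposited score of each position is a signal made by the authors, whose scaling and whose source among the runs are not given in the sources used here, and the reads behind it are unknown. The list was used without a filter. Some sequences of the loci are not reported here. Genes came from GENCODE release 44, and motifs and 50-mers from the hg38 reference. Midpoints were the interval start plus 70 bp, coordinates are 1-based, and GC-matched windows were non-overlapping tiles. The 3 loci, the 3 highest and 3 lowest scores, the 5 positions on each side of the start, the 3 widest gaps and the joined element were named by rule. Members, lists and rules were chosen with earlier results of these data known. The alternatives were other GC limits, gap widths, flanks, start sites and sets of windows or positions. Functions were tested on simulated positions. Poisson intervals are exact at 95% and cover counting error only. Python 3.11.15, Numba 0.67.0, matplotlib 3.10.9, pandas 2.3.3, SciPy 1.17.1 and NumPy 2.4.6 were used.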

Additional observations from a re-analysis of the deposited data

How the results depend on the processing

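No paired analysis was possible because libraries were pooled in the list and no result comes from a test, and for the same reason no library could be left out. With only positions at or above the chromosome median score, positions per kb came to 4.06 at POU5F1, 3.22 at SOX2 and 2.67 at NANOG, with 16.8% of windows below SOX2 and 12.6% below NANOG. Gaps of 250 bp or more numbered 51, 45 and 52, those of 400 bp or more 10, 4 and 13, and those among the higher-scoring positions 60, 41 and 52. With flanks of 10 kb, 16 gaps were left at POU5F1, 12 at SOX2 and 22 at NANOG. When only gaps with under 10% repeated bases were counted, 17, 22 and 11 were left. With windows within 3 GC points, 38.9% held fewer positions than SOX2 and 7.21% fewer than NANOG, and 33.3% and 6.00% had a lower median score than POU5F1 and SOX2. Among windows with a protein-coding start, 36.6% held fewer positions than SOX2 and 4.11% had a lower median score than NANOG. Among windows without distances over 2000 bp, 7.14% scored lower than POU5F1. By the mean score 29.7% of windows were below SOX2. With windows also matched on repeated bases, an alternative chosen after seeing the data like the count of gaps with few repeated bases, 14.6% held fewer positions than SOX2 and 0 of 199 (0%, which allows up to 1.51%) had a lower median score. The cause of these moves was not tested, other than that wider gap limits and shorter flanks count less by construction. In each alternative set of windows or positions, the NANOG locus held fewer positions per kb than most windows. Under every alternative run, the share of windows below a locus stayed under 50% for both density and score.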
